A study of Homo sapiens with 6 samples.

Results

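The 10 genes described here mark epithelial identity or the epithelial-mesenchymal transition (EMT) and were read from an RNA-sequencing table of colorectal cancer cells. They were CDH1, EPCAM, KRT8, KRT18, KRT19, CLDN1, CLDN7, VIM, ZEB1 and SNAI2. Each was looked up by its gene name, and all 10 were found, each in 1 of the 27918 rows of the table. Of these, 9 were among the 16028 rows whose mean reached 0.1 FPKM (fragments scaled by transcript length and by the depth of the library), and CLDN1 was below that minimum. The row of CLDN7 joined 5 gene names (GABARAP, CTDNEP1, AC120057.3, AC003688.1 and CLDN7), so its value belongs to the locus and could not be assigned to CLDN7.

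The cells were HCT-116, an established human colorectal carcinoma line. One group of 3 libraries was labelled GapC9 and came from cells transfected with an antisense LNA GapmeR, a short oligonucleotide that directs RNase H to its target, against the long noncoding RNA CASC9. The other 3 libraries were labelled GapNC and came from the same line transfected with a control GapmeR, and both oligonucleotides were used at 10 nM. Collection is described as 24 h after transfection for the sequencing and as 48 h in the general protocol. A single GapmeR sequence stood for the knockdown, so an effect of that oligonucleotide and an effect of losing CASC9 cannot be told apart. The labels do not say whether the 3 libraries of a group came from separate cultures, so p-values measure the spread between these libraries.

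The commonest step between low values corresponded to 22750000 to 24400000 fragments per library, if that step is 1 fragment. For CASC9, the targeted RNA, the GapNC libraries held 0, 0.0108 and 0 FPKM and the GapC9 libraries 0.0528, 0.107 and 0 FPKM, which is about 0 to 3 fragments each. The values were thus not lower in GapC9, but with GapNC near 0 a reduction could not have been seen. The study reports lower CASC9 by RT-qPCR in HCT-116 cells after transfection of the GapmeR. CASC9 was too scarce here to check the labels, so GapNC and GapC9 are used throughout as the names of the labels. Library GapNC 1 stood apart from the others in how its values followed GC content, with a Spearman rho of 0.62 between deviation and GC content over 10117 genes. That rho was between -0.10 and 0.02 in GapNC 2, GapNC 3 and GapC9 1, and -0.34 and -0.38 in GapC9 2 and GapC9 3.

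Epithelial cells hold together through E-cadherin junctions and claudin-based tight junctions, and their cytoplasm is supported by keratin filaments. During EMT, transcription factors such as ZEB1 and SNAI2 bind E-box sequences in the promoters of epithelial genes and repress them, while vimentin takes the place of keratin as the main intermediate filament. In colon tumours, loss of E-cadherin and gain of vimentin or ZEB1 are classic features of invading cells.

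Promoter sequence was at hand for 5 of the 10 genes (CLDN1, CLDN7, KRT8, VIM and ZEB1), and CDH1, EPCAM, KRT18, KRT19 and SNAI2 had no entry. Shown here are 250 bases before the most upstream RefSeq transcript start listed (build GRCh38.p14, sense strand of the gene, 5′ to 3′) for ZEB1 and VIM, the genes gained in EMT, and for the claudin CLDN7. Capitals mark the E-box letters CAGGTG or CACCTG, which are each other's reverse complement.
ZEB1, chr10:31318167-31318416, plus strand: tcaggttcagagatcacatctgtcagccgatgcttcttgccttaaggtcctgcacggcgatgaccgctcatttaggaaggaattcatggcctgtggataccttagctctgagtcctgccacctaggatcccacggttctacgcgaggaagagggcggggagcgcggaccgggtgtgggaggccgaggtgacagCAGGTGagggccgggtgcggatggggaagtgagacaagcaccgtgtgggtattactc
VIM, chr10:17227991-17228240, plus strand: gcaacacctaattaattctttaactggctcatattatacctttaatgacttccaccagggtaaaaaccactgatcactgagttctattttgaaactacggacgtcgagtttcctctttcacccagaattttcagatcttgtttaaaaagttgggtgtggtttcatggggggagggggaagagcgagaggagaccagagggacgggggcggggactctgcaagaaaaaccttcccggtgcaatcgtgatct
CLDN7, chr17:7263214-7263463, minus strand: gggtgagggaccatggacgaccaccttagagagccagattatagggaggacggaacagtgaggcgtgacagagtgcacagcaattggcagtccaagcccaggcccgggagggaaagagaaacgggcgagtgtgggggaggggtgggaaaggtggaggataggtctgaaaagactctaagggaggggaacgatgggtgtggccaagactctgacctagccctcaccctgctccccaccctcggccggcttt
The ZEB1 window printed held 1 match, beginning 57 bases before the start, and neither the VIM nor the CLDN7 window printed held any. ZEB1 had 7 listed starts, of which the one with its window from 31318966 to 31319215 had 2 matches and 5 had 0. Of 35116 windows of the same length, 17.5% held at least 1 match. A second CLDN7 start, whose window ran from 7262479 to 7262728, had 4 matches in its 250 bases, and 0.122% of all windows had at least 4. These letters describe the sequence and were not tested as binding sites.

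The levels of the 10 genes ran from the abundant keratins down to CLDN1, below 0.1 FPKM. The mean over all 6 libraries was 391 FPKM for KRT8, 365 for KRT18, 285 for KRT19, 78.7 for EPCAM, 27.4 for the CLDN7 locus, 12.3 for CDH1, 2.73 for VIM, 0.676 for SNAI2, 0.563 for ZEB1 and 0.0536 for CLDN1. The ranges over libraries overlapped between KRT8 and KRT18, between KRT18 and KRT19 and between SNAI2 and ZEB1. All other neighbours in this order were separate in every library. KRT18 was nevertheless above KRT19 in 6 of 6 libraries, and SNAI2 above ZEB1 in 6 of 6, while KRT8 was above KRT18 in 5 of 6. Among all rows tested, KRT8 ranked at position 29 and ZEB1 at position 11559. Within each library CDH1 was 3.17 to 6.09 times as high as VIM, and EPCAM 21.0 to 36.7 times.

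None of the 9 genes tested passed an adjusted p of 0.05 between the groups, higher (0 of 9, against 1.89% of all rows tested) or lower (0 of 9, against 5.1%), in limma on log2(FPKM + 0.1) with Benjamini-Hochberg adjustment over all rows. None had a mean at least 2 times higher or lower together with an unadjusted p under 0.05, a call made for 6.42% of all rows. At an unadjusted p under 0.05, 3 of the 9 were higher in GapC9 (EPCAM, SNAI2 and ZEB1; 9.09% of all rows) and 0 were lower (16.8%). The groups did not overlap for the same 3 genes, higher (12.6% of all rows), and for CDH1, lower (21.6%). The median difference of the 9 genes was 0.02 on the log2 scale, beside -0.08 over all rows tested. Every difference given here is GapC9 minus GapNC on the scale of log2(FPKM + 0.1), which understates changes of genes near 0.1 FPKM.

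**Figure D1:**
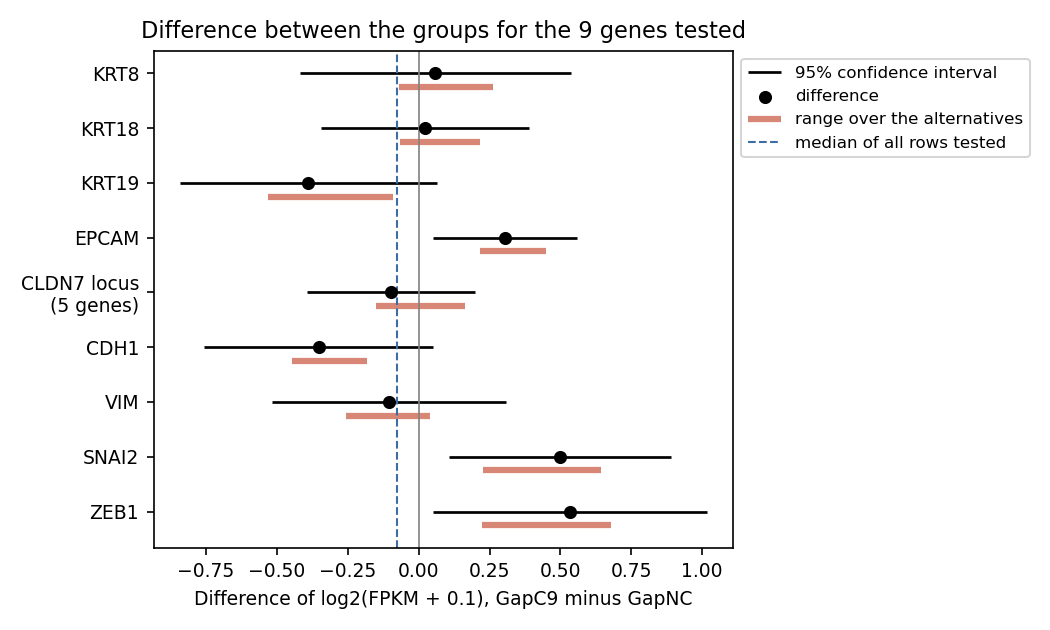
Difference of log2(FPKM + 0.1), GapC9 minus GapNC, for the 9 genes tested, with 95% confidence intervals (black), the range over 18 alternative analyses (17 for SNAI2 and ZEB1; red bars) and the median of all rows (dashed line). The intervals of EPCAM, SNAI2 and ZEB1 lie above 0, before any adjustment for multiple tests.

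KRT8 and KRT18 encode the paired type II and type I keratins of simple epithelia. KRT8 (chromosome 12, 52897187 to 52949954, minus strand, in GENCODE release 29 on GRCh38, the source of all gene positions here) measured 480, 316 and 356 FPKM in GapNC 1, 2 and 3 and 471, 385 and 337 FPKM in GapC9 1, 2 and 3. The groups overlapped throughout, with the highest value of each group in its first library. The difference was 0.06 ± 0.20 (SE), with a 95% interval from -0.42 to 0.54 and an adjusted p of 0.880. KRT18 (chromosome 12, 52948871 to 52952901, plus strand) lies beside KRT8 and overlaps its annotated span on the other strand. It measured 437, 335 and 318 FPKM in GapNC and 408, 360 and 331 FPKM in GapC9, and its difference was 0.02 ± 0.15 (adjusted p = 0.943). The ratio of KRT8 to KRT18 within a library stayed between 0.944 and 1.15 in all 6 libraries. Both keratins have many processed pseudogenes that can take or give reads, and 24 KRT8 and 21 KRT18 pseudogene rows together amounted to at most 0.860% and 0.139% of the parent gene in any library.

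KRT19, the smallest type I keratin and a common marker of simple epithelial and tumour cells (chromosome 17, 41523617 to 41528308, minus strand), measured 407, 262 and 307 FPKM in GapNC and 282, 230 and 224 FPKM in GapC9. GapNC 2 fell within the GapC9 range, so the groups overlapped. The difference was -0.39 ± 0.19 (95% interval -0.84 to 0.06, adjusted p = 0.248), and it was -0.09 after correction for GC content, KRT19 being at 61.8% the most GC-rich of the 10. KRT8 was 1.18, 1.21 and 1.16 times KRT19 in GapNC and 1.67, 1.67 and 1.505 times in GapC9, with no overlap (exact two-sided permutation p = 0.10, the smallest that 3 against 3 allows). For comparison, the groups did not overlap in 31.3% of all ratios between 2 tested rows. KRT18 over KRT19 was likewise 1.07, 1.28 and 1.04 in GapNC and 1.45, 1.56 and 1.48 in GapC9.

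EPCAM, a transmembrane glycoprotein of epithelial cell contacts used to define carcinoma cells (chromosome 2, 47345158 to 47387601, plus strand), measured 62.3, 76.8 and 72.6 FPKM in GapNC and 84.0, 88.3 and 88.4 FPKM in GapC9. All 3 GapC9 libraries were above all 3 GapNC libraries. The mean was 1.23 times as high, a difference of 0.31 ± 0.10 (95% interval 0.05 to 0.56) with an unadjusted p of 0.0256 and an adjusted p of 0.135. Its adjusted p ranged from 0.0529 to 0.317 over the alternatives.

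CDH1 encodes E-cadherin, the adhesion receptor of adherens junctions (chromosome 16, 68737225 to 68835548, plus strand). It measured 13.1, 14.3 and 13.8 FPKM in GapNC and 12.2, 8.43 and 11.9 FPKM in GapC9. Every GapC9 library was below every GapNC library, and GapC9 2 was the lowest. The mean was 0.792 times that of GapNC, a difference of -0.35 ± 0.17 (95% interval -0.76 to 0.05, unadjusted p = 0.0768, adjusted p = 0.241), and it was -0.18 without GapC9 2. The epithelial adhesion genes EPCAM and CDH1 thus had differences of opposite sign. CDH1 over EPCAM was 0.210, 0.186 and 0.189 in GapNC and 0.146, 0.0955 and 0.135 in GapC9, without overlap (exact two-sided permutation p = 0.10), as in 31.3% of all such ratios.

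The claudins form the strands of tight junctions. The locus holding CLDN7 (chromosome 17, 7259903 to 7263983, minus strand, for CLDN7 alone) measured 32.6, 26.2 and 26.2 FPKM in GapNC and 25.5, 25.5 and 28.2 FPKM in GapC9. The groups overlapped, and the difference of -0.10 ± 0.12 (adjusted p = 0.652) took the opposite sign after median scaling, after GC correction and without GapNC 1. ELP5 overlaps CLDN7 on the opposite strand and measured 17.2, 14.7 and 14.6 FPKM in GapNC and 17.7, 17.6 and 17.5 FPKM in GapC9. CLDN1 (chromosome 3, 190305701 to 190322475, minus strand) measured 0.0600, 0.0234 and 0.0551 FPKM in GapNC and 0.0365, 0.0677 and 0.0792 FPKM in GapC9. These values equal about 2 to 7 fragments on its 3481-base transcript, and an exact two-sided permutation test gave p = 0.40. A difference in CLDN1 was not detectable at this depth.

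VIM encodes vimentin, the intermediate filament of mesenchymal cells (chromosome 10, 17228259 to 17237593, plus strand). It measured 2.97, 3.30 and 2.26 FPKM in GapNC and 2.77, 2.66 and 2.41 FPKM in GapC9. The GapC9 values fell inside the GapNC range, and the difference was -0.10 ± 0.17 (95% interval -0.52 to 0.31, adjusted p = 0.738). It turned positive after median scaling (0.04), after quantile normalization (0.03) and without GapNC 2 (0.01). The antisense gene VIM-AS1 overlaps the start of VIM and was listed at 0.513, 0.195 and 0.214 FPKM in GapNC and 0.657, 0.478 and 0.0192 FPKM in GapC9. The overlapping AL133415.1 was at most 0.0712 FPKM. The use of strand in counting is not given in the sources used here, so reads of the overlapping parts may be shared.

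ZEB1 encodes a zinc finger repressor of CDH1 and of other epithelial genes (chromosome 10, 31318495 to 31529814, plus strand). It measured 0.376, 0.498 and 0.446 FPKM in GapNC and 0.539, 0.805 and 0.713 FPKM in GapC9. All GapC9 libraries were above all GapNC libraries, with GapC9 1 the nearest to the controls. The mean was 1.56 times as high, a difference of 0.53 ± 0.20 (95% interval 0.05 to 1.02, unadjusted p = 0.0357, adjusted p = 0.162). Its adjusted p was between 0.107 and 0.371 over the alternatives. ZEB1-AS1 is transcribed from the opposite strand and overlaps the start of ZEB1. It was listed at 0.310, 0.125 and 0.490 FPKM in GapNC and at 0.720, 0.562 and 0.740 FPKM in GapC9. The groups did not overlap, higher in GapC9, as for 12.6% of all rows (adjusted p = 0.156, limma). As for VIM and VIM-AS1, reads of the overlapping parts of ZEB1 and ZEB1-AS1 may be shared. SPTLC1P1, a pseudogene inside the ZEB1 span, was listed at 0.402, 0.416 and 0.746 FPKM in GapNC and 0.0416, 0.534 and 0.0908 FPKM in GapC9. The ZEB1 window printed above lies within exons annotated for ZEB1-AS1.

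SNAI2 encodes Slug, a repressor of the Snail family (chromosome 8, 48917604 to 48921740, minus strand). It measured 0.484, 0.620 and 0.527 FPKM in GapNC and 0.718, 0.862 and 0.844 FPKM in GapC9, again with every GapC9 library above every GapNC library. The mean was 1.49 times as high, a difference of 0.50 ± 0.16 (95% interval 0.11 to 0.89, unadjusted p = 0.0205, adjusted p = 0.120), and the adjusted p was between 0.0579 and 0.302 over the alternatives. At about 22 to 42 fragments per library for SNAI2 and 54 to 122 for ZEB1, taking the longest listed transcript, both repressors were measured on few fragments. CDH1 was 34.8, 28.7 and 30.8 times ZEB1 in GapNC and 22.7, 10.5 and 16.7 times in GapC9. Over all 36 pairs of the 9 genes, the groups did not overlap in 13 ratios, that is 36.1%, beside 31.3% of all pairs of tested rows without a 0.

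GC content differed widely among these genes and the libraries differed in their dependence on it. In GapNC 1 the 4 rows above 55% GC (KRT18, KRT8, the CLDN7 locus and KRT19) were 0.26 to 0.54 above their own mean on the log2 scale, and ZEB1, SNAI2 and EPCAM were 0.33 to 0.44 below it. In GapC9 2 and GapC9 3, ZEB1 and SNAI2, at 38.5% and 42.5% GC, were 0.31 to 0.48 above their mean and KRT19 was 0.28 and 0.32 below. CDH1 and VIM, at 48.6% and 46.9% GC, were 0.11 and 0.13 above their own means in GapNC 1. EPCAM, at 47.0% GC and thus between them, was 0.33 below its mean there. After GC correction the differences were 0.44 for ZEB1, 0.49 for SNAI2, 0.36 for EPCAM, -0.27 for CDH1, 0.26 for KRT8, 0.22 for KRT18 and -0.09 for KRT19, and none passed an adjusted p of 0.05. Without GapNC 1 they were 0.44, 0.43, 0.22, -0.38, 0.23, 0.16 and -0.21 in the same order.

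Over the 6 libraries, the single-gene row whose log2(FPKM + 0.1) followed each gene most closely, of 9095 rows compared, was CCDC102A for KRT8 (Pearson r = 0.994), GPRC5C for KRT18 (0.998), DDX11 for KRT19 (0.993), UBXN2A for CDH1 (0.989), CYB5R3 for the CLDN7 locus (0.981) and MTMR14 for VIM (0.973). EPCAM was closest to TARS (r = 0.9995). These 6 points share their libraries, depth and GC dependence, and the r values describe likeness over them.

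Genes of the same processes were taken from 10 lists that cover 108 distinct rows tested. The lists also hold genes described above, such as CDH1, EPCAM and KRT8, and these are counted among the 108 rows. Of these rows 3 were higher and 6 lower at an adjusted p of 0.05, that is 2.78% and 5.56%, beside 1.89% and 5.1% of all rows, and their median difference was -0.05. All 9 calls were lost when GapNC 2 was left out (adjusted p 0.0550 to 0.109), when GapC9 2 was left out (0.0619 to 0.169) and when GapC9 3 was left out (0.0647 to 0.134), while all 9 kept their direction. Without GapNC 1, 5 of the 9 were still called, and without GapNC 3 or without GapC9 1, 1 was (CDCP1). Most calls of the whole table were lost in the same fits, since its 303 higher and 817 lower rows became 16 and 19 without GapNC 2, 18 and 17 without GapC9 2, 16 and 18 without GapC9 3, 35 and 70 without GapNC 3 and 20 and 38 without GapC9 1, against 241 and 573 without GapNC 1.

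The polarity complexes, which set the apical and basal sides of an epithelial cell, had the lowest list median among the 10, -0.52, and it was -0.37 after median scaling and -0.38 after GC correction. Of the 12 genes tested, 3 were lower (5.1% of all rows) and 1 was higher (1.89%), and 11 had a difference below 0, as had 56.4% of all rows. At an unadjusted p under 0.05 in limma 7 were lower (16.8% of all rows) and 1 was higher (9.09%). After GC correction 6 passed the adjusted threshold lower and 0 higher, beside 1228 and 1089 of all 16028 rows. PARD3, the scaffold of the Par complex, fell from 4.97 ± 0.10 to 2.59 ± 0.19 FPKM (SD, n = 3 each), a difference of -0.92 ± 0.11 with an adjusted p of 0.0172 in limma. PRKCZ, an atypical protein kinase C that binds this complex, fell from 3.55 ± 0.46 to 1.98 ± 0.14 FPKM (adjusted p = 0.0315, limma), and PATJ, a scaffold of the Crumbs complex, from 2.88 ± 0.30 to 1.77 ± 0.20 FPKM (adjusted p = 0.0465, limma). LIN7C, an adaptor of the same scaffolds, rose from 3.28 ± 0.36 to 5.30 ± 0.52 FPKM (adjusted p = 0.0427, limma). The LIN7C call ended after GC correction (difference 0.50, adjusted p = 0.108), at 33.5% GC, and also with no filter (0.0663) and without the variance trend (0.0536). The PATJ call ended under all 3 other scalings (adjusted p 0.0630 to 0.0898), with a pseudocount of 1 (0.0507), with no filter (0.0784) and without the trend (0.0544), and that of PRKCZ with no filter (0.0531). The most abundant polarity genes, the basolateral determinant SCRIB (its row also names MIR937) at 46.0 ± 10.9 and 31.9 ± 5.0 FPKM and the kinase PRKCI at 13.5 ± 2.5 and 9.51 ± 1.15 FPKM, did not pass.

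In the adherens junction list, where CDH1 belongs, 0 of 14 genes passed in either direction at an adjusted p of 0.05. At an unadjusted p under 0.05 in limma 1 was higher (9.09% of all rows) and 1 lower (16.8%). After GC correction 3 passed the adjusted threshold higher and 1 lower, beside 1089 and 1228 of all 16028 rows. CTNNB1, a catenin that binds E-cadherin, measured 52.4 ± 2.9 FPKM in GapNC and 52.2 ± 1.5 in GapC9. JUP, a related catenin shared with desmosomes, measured 84.6 ± 15.9 and 66.6 ± 2.4 FPKM (adjusted p = 0.216, limma). Of 10 desmosome genes 0 passed in either direction at an adjusted p of 0.05. After GC correction 1 of them passed higher and 1 lower, beside 1089 and 1228 of all 16028 rows. At an unadjusted p under 0.05 in limma 1 was higher (9.09% of all rows) and 2 lower (16.8%). The desmosomal cadherin DSG2 was at 38.1 ± 4.2 and 38.2 ± 14.0 FPKM. Of 17 tight junction genes 1 was lower (5.1% of all rows) and 0 were higher (1.89%). It was CGNL1, the junctional linker paracingulin, at 0.645 ± 0.141 and 0.264 ± 0.041 FPKM (difference -1.02 ± 0.21, adjusted p = 0.0439). The CGNL1 call ended after median scaling (adjusted p = 0.0594) and with no filter (0.102), and its difference was -0.38 with a pseudocount of 1 and -1.25 with one of 0.01. The scaffold TJP1 measured 26.2 ± 2.4 and 26.5 ± 1.6 FPKM. After GC correction 2 of the 17 tight junction genes passed the adjusted threshold higher and 1 lower, beside 1089 and 1228 of all 16028 rows.

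Of 8 keratins tested 1 was lower (5.1% of all rows) and 0 were higher (1.89%). This was KRT80, an epithelial type II keratin, which fell from 7.997 ± 0.890 to 4.55 ± 0.47 FPKM (difference -0.80 ± 0.13, adjusted p = 0.0311). After GC correction 0 of the 8 keratins passed the adjusted threshold higher and 1 lower, beside 1089 and 1228 of all 16028 rows. Of 12 genes of the epithelial surface and its proteases 1 was lower (5.1% of all rows) and 1 higher (1.89%). CDCP1, a transmembrane substrate of Src kinases, fell from 69.1 ± 3.3 to 32.3 ± 2.1 FPKM (difference -1.10 ± 0.09, adjusted p = 0.0147), which made the mean 0.467 times that of GapNC. The row that joins ERBB3 with PA2G4 and AC034102.2 rose from 45.8 ± 2.2 to 60.2 ± 1.6 FPKM (adjusted p = 0.0455), and the value could not be assigned to ERBB3. That call ended after quantile normalization (adjusted p = 0.0563), with no filter (0.0802) and without the trend (0.0935). The tricellular junction receptor LSR measured 49.6 ± 12.1 and 68.4 ± 7.5 FPKM (adjusted p = 0.178, limma). Its adjusted p ranged from 0.00451 to 0.337 over the alternatives, so it passed under at least 1 of them. After GC correction 2 of the 12 surface genes passed the adjusted threshold higher and 2 lower, beside 1089 and 1228 of all 16028 rows.

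Of 14 epithelial transcription and splicing factors 1 was higher (1.89% of all rows) and 0 were lower (5.1%). KLF5, a zinc finger factor of proliferating intestinal crypt cells, rose from 13.7 ± 1.3 to 25.4 ± 1.0 FPKM (difference 0.90 ± 0.11, adjusted p = 0.0178), while the ETS factor EHF was at 41.3 ± 7.8 and 37.2 ± 2.6 FPKM. After GC correction 4 of the 14 passed the adjusted threshold higher and 1 lower, beside 1089 and 1228 of all 16028 rows. In the EMT transcription factor list, which includes ZEB1 and SNAI2, 0 of 6 genes tested passed in either direction at an adjusted p of 0.05. After GC correction 1 gene passed higher, neither ZEB1 nor SNAI2, and 1 lower, beside 1089 and 1228 of all 16028 rows. At an unadjusted p under 0.05 in limma 2 were higher, ZEB1 and SNAI2 (9.09% of all rows), and 1 was lower (16.8%). The last was TCF3, which encodes the E2A factors, at 27.3 ± 6.5 and 15.7 ± 1.8 FPKM (adjusted p = 0.0656). SNAI1 encodes Snail, was the more abundant Snail family member at 7.49 ± 1.53 and 9.35 ± 1.09 FPKM, and did not pass (adjusted p = 0.297). Of 13 mesenchymal markers tested 0 passed in either direction at an adjusted p of 0.05, with 3 higher (9.09% of all rows) and 0 lower (16.8%) at an unadjusted p under 0.05 in limma. After GC correction 3 passed the adjusted threshold higher and 0 lower, beside 1089 and 1228 of all 16028 rows. The most abundant genes of that list were CD44 at 43.9 ± 2.2 and 51.3 ± 11.1 FPKM and S100A4 (in a row of 2 names) at 45.1 ± 14.0 and 30.0 ± 5.6 FPKM, and neither passed.

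The labelled tissue was colon. The general epithelial markers were high as given above, whereas markers of differentiated intestinal cells were nearly absent, with 8 of the 12 intestinal identity genes found below a mean of 0.1 FPKM. CDX1, VIL1, LGALS4, GPA33, CDH17 and HNF4A were at most 0.0659 FPKM in any library, and the cytokeratin KRT20 was between 0.0956 and 0.302 FPKM. CDX2, the homeobox factor of intestinal fate, measured 2.17, 2.14 and 1.80 FPKM in GapNC and 3.79, 1.59 and 1.81 FPKM in GapC9, and the endodermal factor GATA6 2.06 ± 0.36 and 2.29 ± 0.86 FPKM. Of the 4 intestinal genes tested 0 passed in either direction at an adjusted p of 0.05, and 0 at an unadjusted p under 0.05 in limma. Genes of other cell types were at or near 0, 10 of 11 below a mean of 0.1 FPKM, with a summed level of 0.689 to 0.940 FPKM in GapNC and 0.554 to 0.711 FPKM in GapC9. Most of that sum was the pericyte gene RGS5 (0.630 ± 0.081 and 0.456 ± 0.050 FPKM), and the leukocyte marker CD14 was at 0.0808 ± 0.0426 and 0.0667 ± 0.0389 FPKM. In bulk RNA, fewer cells of a type and less RNA per cell cannot be told apart.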

How the data were processed

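Total RNA (RNA integrity number over 7) was poly(A)-selected and sequenced in pairs, as the labels and the study's methods state. The authors mapped reads with HISAT and computed FPKM with StringTie, and they deposited 1 table of FPKM per gene or assembled locus. The submitters' processing notes name HISAT2 2.0, StringTie 1.3.0 and Bowtie 0.12.2 and a mouse build, although the table holds human gene identifiers, and the human build is not given in the sources used here. The table holds no columns of the authors' own comparisons, and 0 columns of values were left unused.

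The 6 FPKM columns were mapped to groups by the labels. Rows with a mean of at least 0.1 FPKM were tested on log2(FPKM + 0.1) with limma 3.58.1 in R 4.3.3 (lmFit, eBayes with trend, two-sided, Benjamini-Hochberg over all 16028 rows), since the values are not counts and the edgeR test of the study's methods could not be run on them. The study's thresholds (a mean 2 times higher or lower, with p under 0.05 before adjustment) were applied to the same fit. CLDN1 and ratios of genes were compared by exact permutation (scipy 1.17.1). Joined rows count once under each name. Positions and exon GC content came from GENCODE release 29.

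The 10 genes and the lists were chosen with earlier results of these data known, and 2 genes of the lists are not reported here and were left out of the list counts. Named are the 10 genes, from each list the genes past an adjusted p of 0.05 and the 2 with the highest mean, for each of the 10 with a mean of at least 1 FPKM the row with the highest Pearson r, and the pseudogene and antisense rows. Alternatives were pseudocounts of 1 and 0.01, a filter at 1 FPKM and none, 3 other scalings and GC correction (lowess, span 0.3). Further ones were no variance trend, robust variances, the replicate number as a block, alone and with GC correction, and each library left out.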

Additional observations from a re-analysis of the deposited data

How the results depend on the processing

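Under all 18 alternatives, 0 of the 9 genes tested passed an adjusted p of 0.05 and 0 passed the fold with an unadjusted p, also without each library in turn. The lowest adjusted p of any of them was 0.0529, for EPCAM after GC correction. EPCAM, SNAI2, ZEB1, CDH1 and KRT19 kept their direction under every alternative that tested them (SNAI2 and ZEB1 were below the filter at 1 FPKM). The sign turned for KRT18 (-0.033) and VIM (0.030) after quantile normalization, for the CLDN7 locus (0.048) and VIM (0.041) after median scaling, and for the CLDN7 locus after GC correction, alone or with the block (0.16 in both). With 1 library left out, differences ranged from -0.070 (without GapNC 2, or without GapC9 1 at -0.069) to 0.23 for KRT8, from -0.066 (without GapNC 3, and also below 0 without GapNC 2 or GapC9 1) to 0.16 for KRT18, from -0.15 to 0.0072 (without GapNC 1) for the CLDN7 locus and from -0.26 to 0.0092 (without GapNC 2) for VIM. The cause of these turns was not tested.

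The median of all rows moved from -0.08 to 0.07 after median scaling, and the rows called over the whole table from 303 higher and 817 lower to 483 and 427, so small differences depend on the scaling. Deviations of same-numbered libraries from their group means correlated only weakly across rows (0.097, 0.040 and 0.024). Libraries of unlike number correlated at -0.093 to 0.058. The replicate number was not used to pair libraries in the main fit. With the replicate number as a block, 0 of the 9 genes and 0 of the 9 called genes of the lists passed (adjusted p of the latter 0.0608 to 0.0948), and 0 of all 16028 rows did, of which 4570 had an unadjusted p under 0.05 in limma. That unadjusted count was 4157 in the main fit. The list genes called higher numbered 3 and lower 6, against 16 and 14 after GC correction, 1 and 3 with no filter and 2 and 5 without the variance trend. Over all rows the calls moved alike, from 303 higher and 817 lower to 1089 and 1228 after GC correction, 146 and 346 with no filter (of 27918 rows) and 238 and 660 without the trend. FPKM keeps no exact counts, and the depth limits CLDN1, SNAI2 and ZEB1 most.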

Other observations

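CLDN3, which has 1 exon, was listed at 0 in 5 libraries and at 4.21 FPKM in GapC9 3, and the single-exon CLDN23 at 0 in 4 libraries and at 1.81 and 1.999 FPKM in GapC9 2 and GapC9 3. CLDN4 was not at 0 in any library, and measured 6.17, 17.1 and 4.68 FPKM in GapNC and 4.15, 4.62 and 4.30 FPKM in GapC9. These 3 genes were chosen after their values were seen. KRT8P3, a KRT8 pseudogene, reached 1.74 FPKM, the highest value of any pseudogene row of these keratins. The cause of the zeros was not tested.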
